A study of Mus musculus with 14 samples.

Results

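The miRNAs described here come from the imprinted Dlk1-Dio3 cluster. They were the probes whose name holds a mouse miRNA with one of 39 member numbers, whatever the letter, star or arm suffix. The array carried a probe for 35 of these numbers and 2 probes for 6 of them, which gave 41 member probes among the 343 probes named for mouse miRNAs. miR-665, miR-666, miR-667 and miR-668 had no matching probe. Each member probe was printed in 3 spots per array.

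The Dlk1-Dio3 domain is expressed by parent of origin. The paternal chromosome expresses the protein-coding genes Dlk1, Rtl1 and Dio3. The maternal chromosome expresses the long non-coding RNAs Meg3, Rian and Mirg, an antisense transcript of Rtl1, and the miRNAs that are cut from such long transcripts. In mice these miRNAs are best known from the embryo, the placenta and the brain, and most adult tissues hold little of them. Several have a described role: miR-127, miR-431, miR-433 and miR-434 arise opposite Rtl1 and direct its cleavage, while miR-134 acts on Limk1 in the dendritic spines of neurons.

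MiRNAs were measured in total RNA of adherent peritoneal macrophages of BALB/c mice, with 1 sample on each of 14 arrays. The groups were IL4 receptor KO macrophages harvested 21 days after a peritoneal implant of the nematode Brugia malayi (4 arrays), wild-type (WT) macrophages harvested after the same implant and time (4 arrays), IL4 receptor KO macrophages harvested 3 days after thioglycollate injection (3 arrays), and WT macrophages harvested 3 days after thioglycollate (3 arrays). IL-4 and IL-13 signal through the IL4 receptor to give the alternatively activated state for which nematode-elicited macrophages are studied, and thioglycollate is a sterile irritant. Elicitation and time of harvest differ together and cannot be told apart. The age and sex of the mice and the kind of knockout allele are not given in the sources used here. Nothing in the labels ties a replicate to an animal of its own, so each p-value speaks of the spread between these samples only, which may be technical. Since mRNAs were not measured, the loss of the receptor could not be checked.

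The macrophages were over 80% pure by F4/80 and CD11b staining, per the labels. All 11 probes on the list of myeloid miRNAs stood above blank spots on at least 7 arrays, and 8 of them did so on all 14. A probe counted as above blank spots on an array where its net intensity (foreground minus local background, linear scale, mean of its 3 spots) passed the 95th percentile of that array's 702 blank and 24 negative control spots. This percentile ran from 12.6 to 111 intensity units between arrays, while the median blank spot stayed between 6.69 and 9.18. A value called below blank spots did not pass the percentile, though it may exceed the median blank spot. Nematode WT arrays 1 and 4 had the highest percentiles, 96.2 and 111. Nematode WT array 4 also stood apart over all mouse probes, with a mean correlation of 0.82 with the other arrays of its group, against 0.903 to 0.969 for the other 13 arrays. Of the 7 slides, 6 held 2 arrays of the same group, and slide 12 alone held 2 genotypes. Scanning went through the groups in turn, so scan order and group cannot be told apart.

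All 35 hairpins lay on the plus strand of chromosome 12, within 158 kb. RefSeq (GRCm38.p6) gave a mature sequence for 39 of the 41 members. Where a probe name gives no arm, the arm shown is the one that older naming gave to that name. The sequences below are printed 5′ to 3′ with the seed, bases 2 to 8, in capitals. The first set holds the 3 sequenced members that were above blank spots on most arrays, with the opposite arm of the miR-433 hairpin.
miR-494: uGAAACAUacacgggaaaccuc
miR-370: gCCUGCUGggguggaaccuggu
miR-433-5p: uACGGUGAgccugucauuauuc
miR-433-3p: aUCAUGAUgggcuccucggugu
The second set holds members with the lowest p-values in the group comparisons.
miR-329: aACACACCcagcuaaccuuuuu
miR-543: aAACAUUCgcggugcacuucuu
miR-410: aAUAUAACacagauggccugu
The third set holds the only 3 pairs of members whose seeds differ at 1 base.
miR-379: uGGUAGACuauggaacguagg
miR-411: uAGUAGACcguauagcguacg
miR-376b: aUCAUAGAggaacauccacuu
miR-376a: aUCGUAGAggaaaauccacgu
miR-300: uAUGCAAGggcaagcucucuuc
miR-381: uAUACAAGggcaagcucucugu

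The 39 sequenced members had 39 different seeds, so no seed was shared. The closest were miR-379 and miR-411, which differ in the seed by G2A, miR-376b and miR-376a, which differ by A4G, and miR-300 and miR-381, which differ by G4A (the first-named member's base first, positions counted from 1 at the 5′ end). Of these pairs, miR-381 was above blank spots on 6 arrays and miR-300 on 2, while the other 4 members were above on 0 to 2 arrays. The GC content of the mature sequence had a median of 45.5% among the members above blank spots on at least 7 arrays (n = 3), 45.5% among those above on 3 to 6 arrays (n = 16) and 47.6% among those above on 0 to 2 arrays (n = 20).

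Most members of the cluster were above blank spots on fewer than 7 of the 14 arrays. Of the 41 members, 20 (48.8%) were above blank spots on at least 3 arrays, against 230 of all 343 mouse-named probes (67.1%). On at least 7 arrays it was 4 members (9.76%) against 119 of all mouse-named probes (34.7%). No member was above blank spots on all 14 arrays, which 24 mouse-named probes were. There were 5 members above on no array (12.2%, against 6.71% of all mouse-named probes): miR-376a, miR-377, miR-412, miR-495 and miR-540, whose net intensities ran from 5.46 to 53.8. The median number of arrays above blank spots was 2 for the members and 4 for all mouse-named probes. These shares are descriptions and carry no test. They also depend on the cutoff. The 20 members above on at least 3 arrays became 3 with the 99th percentile (95 of all 343 probes). They became 33 with the blank median plus 3 median absolute deviations (298 of 343), a cutoff chosen after seeing the data. A value below the percentile was not detectable at this blank level, which does not show that the miRNA is absent.

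**Figure D1:**
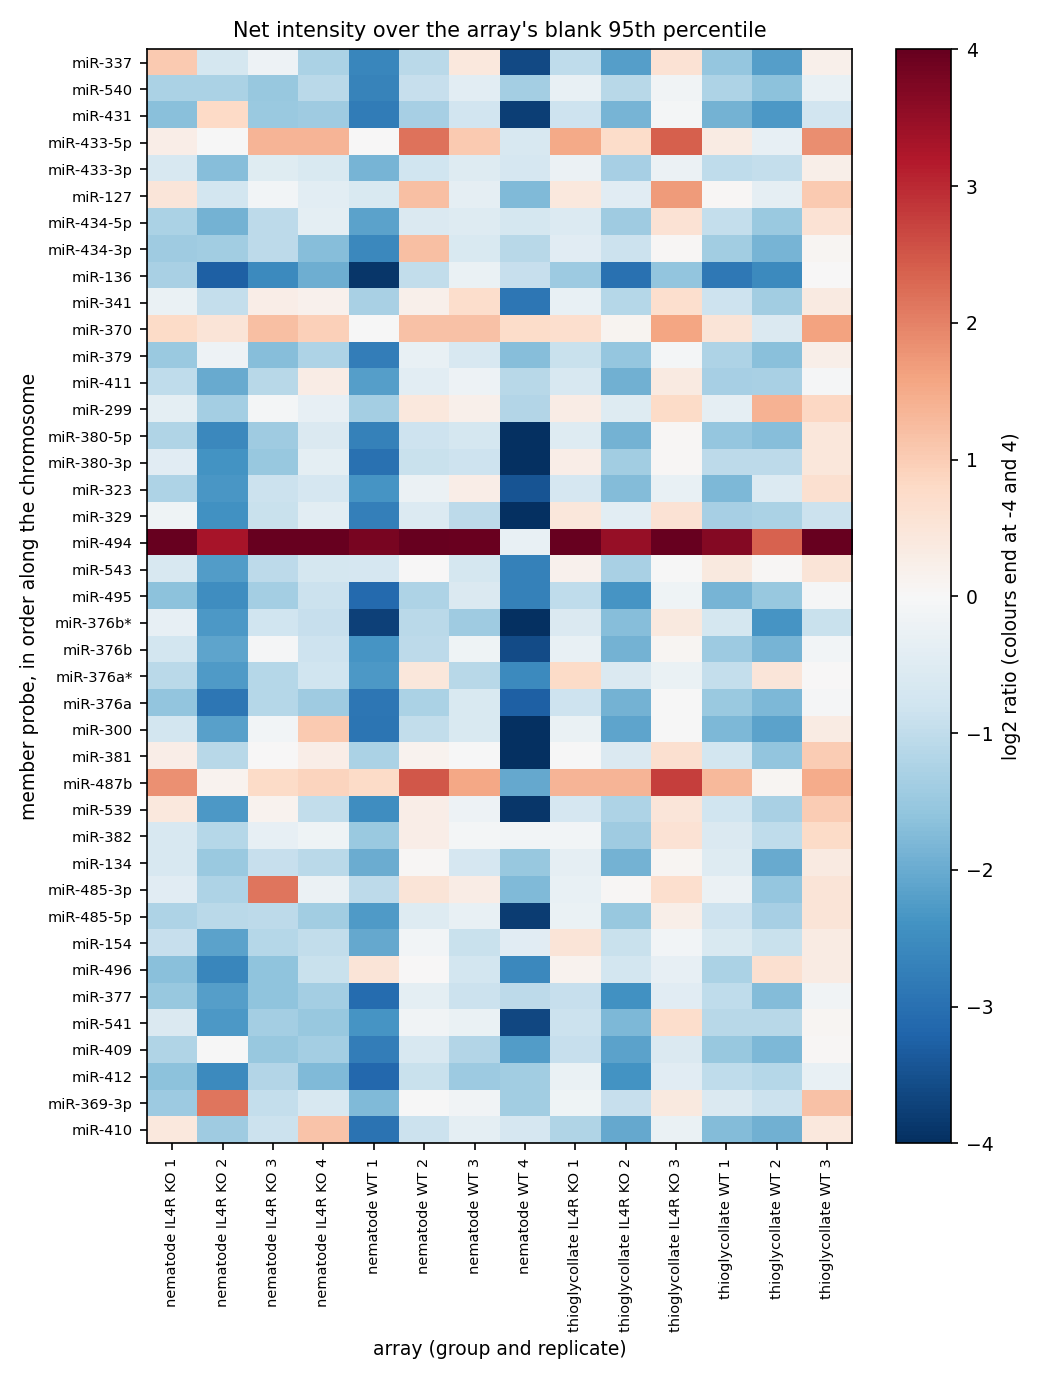
Net intensity of the 41 member probes (rows, in order along the chromosome) on the 14 arrays (columns, by group and replicate; IL4R KO stands for IL4 receptor KO), as the log2 ratio to the array's 95th percentile of blank spots; red is above it and blue below. The row of miR-494 is red on 13 of 14 arrays, and the columns with most red are thioglycollate WT 3 and thioglycollate IL4R KO 3, 2 of the 4 arrays with the lowest blank percentile.

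How many members passed depended on the array. Between 1 and 31 members were above blank spots on an array, with a median of 8.5. Over all 343 mouse-named probes it was 41 to 279, with a median of 125.5, so this dependence was not particular to the members. Nematode IL4 receptor KO arrays had 5 to 9 members above, nematode WT arrays 1 to 16, thioglycollate IL4 receptor KO arrays 5 to 24 and thioglycollate WT arrays 6 to 31. Of the 145 member values above blank spots, 80 (55.2%) fell on the 4 arrays with the lowest blank percentile, which are thioglycollate WT 3, nematode WT 3, thioglycollate IL4 receptor KO 3 and nematode WT 2. On these 4 arrays, in the same order, 279, 166, 257 and 199 of the 343 mouse-named probes were above. The count of members above blank spots is therefore not a measure of level. Without thioglycollate WT 3, 14 members passed on at least 3 arrays in place of 20, and without nematode WT 1 and 4 it was 20. The summed net intensity of the 41 members was 1403 to 1942 on nematode IL4 receptor KO arrays, 758 to 2626 on nematode WT arrays, 1472 to 1535 on thioglycollate IL4 receptor KO arrays and 980.4 to 1239 on thioglycollate WT arrays. In these bulk samples, fewer cells that make a miRNA and less of it per cell cannot be told apart.

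Along the chromosome the probes fell into 2 stretches with a gap of 90.8 kb between their hairpins. The first stretch, 32.5 kb long, ran from miR-337 to miR-370 with 11 probes, of which 6 were above blank spots on at least 3 arrays and 2 on at least 7. The second ran from miR-379 to miR-410, 123 to 158 kb from the first hairpin, with 30 probes, of which 14 were above on at least 3 arrays and 2 on at least 7. By RefSeq overlap, 4 of the 9 members at Rtl1, both members at Rian (miR-341 and miR-370), 3 of the 8 at Mirg and 11 of the 22 outside these genes were above blank spots on at least 3 arrays. Members above blank spots thus lay in both stretches.

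**Figure D2:**
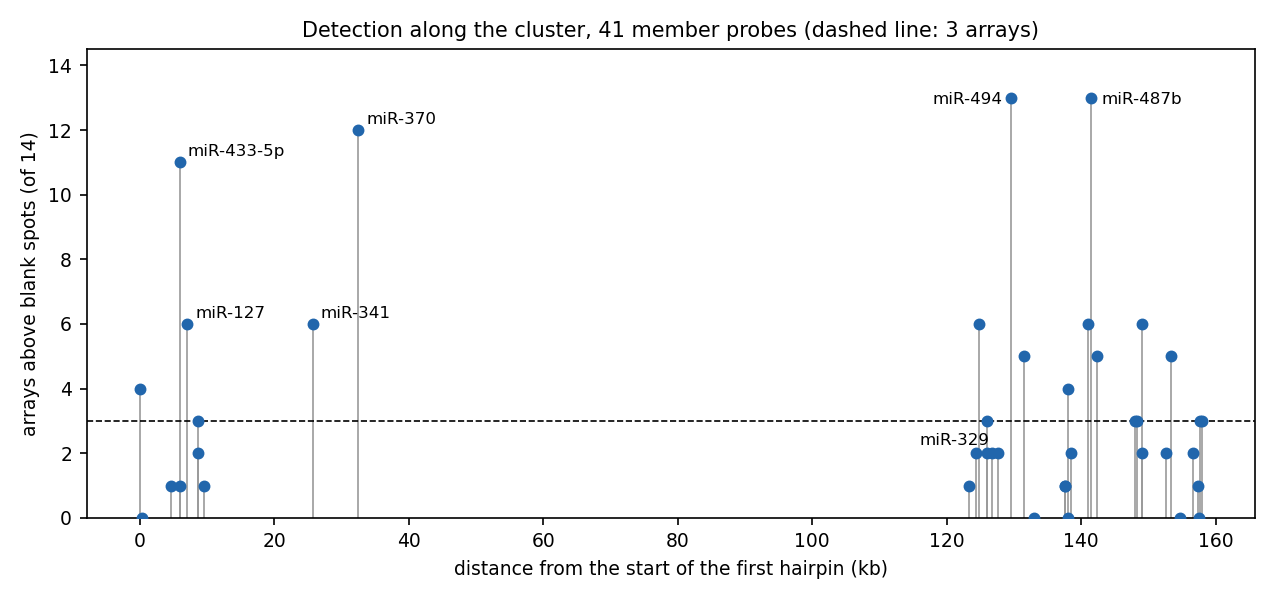
Number of arrays (of 14) on which each of the 41 member probes was above blank spots, against the distance of its hairpin from the first hairpin in kb. The 4 probes above on 11 to 13 arrays lie in both stretches, and the other 37 are at or under 6 arrays.

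MiR-494 stood furthest above the blank percentile among the members on 13 of 14 arrays. Its net intensity was 647, 609.9, 830.0 and 636 on the 4 nematode IL4 receptor KO arrays, against 1338, 703, 231 and 91.5 on the 4 nematode WT arrays. It was 507, 527 and 657 on the thioglycollate IL4 receptor KO arrays, against 429, 190.2 and 326 on the thioglycollate WT arrays. It was above blank spots on 13 arrays, with nematode WT 4 as the exception. The highest nematode WT array was 14.6-fold above the lowest, whereas the highest was 1.36-fold above the lowest among nematode IL4 receptor KO arrays. The nematode WT arrays thus enclosed every value of the other 3 groups. On the normalized log2 scale miR-494 averaged 9.36 ± 0.12 in nematode IL4 receptor KO and 8.61 ± 1.33 in nematode WT (SD, n = 4 each). The log2 difference of 0.74 had a 95% interval of -0.27 to 1.76, which includes 0 (limma adjusted p = 0.558). Without nematode WT 4 the difference was 0.17 (limma adjusted p = 0.854), and the highest of the remaining nematode WT arrays was 5.79-fold above the lowest. Without nematode WT 1 the difference was 1.17 (limma adjusted p = 0.242), and with cyclic loess it was 0.33 (limma adjusted p = 0.525).

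MiR-487b was also above blank spots on 13 arrays, again with nematode WT 4 as the exception. Its net intensity was 110.4, 69.1, 55.7 and 45.1 on nematode IL4 receptor KO arrays, against 165, 103, 43.6 and 26.9 on nematode WT arrays. It was 70.0, 119 and 101 on thioglycollate IL4 receptor KO arrays, against 82.4, 38.9 and 35.5 on thioglycollate WT arrays. The groups overlapped in both pairs.

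MiR-370, one of the members that overlap Rian, was above blank spots on 12 arrays. Its net intensity was 53.3, 89.2, 75.5 and 46.6 on nematode IL4 receptor KO arrays, against 96.0, 42.3, 33.4 and 184 on nematode WT arrays. It was 43.8, 50.4 and 44.3 on thioglycollate IL4 receptor KO arrays, against 48.6, 24.5 and 38.8 on thioglycollate WT arrays. The value of 184, on nematode WT 4, came from spots of 72.6, 84.7 and 394. All 4 groups overlapped.

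MiR-433-5p was above blank spots on 11 arrays, and miR-433-3p, the other arm of its hairpin, on 1. The 5p arm had net intensities of 37.7, 62.5, 85.0 and 62.5 on nematode IL4 receptor KO arrays, against 96.5, 83.2, 30.9 and 71.7 on nematode WT arrays. It had 79.1, 77.8 and 77.9 on thioglycollate IL4 receptor KO arrays, against 42.3, 29.7 and 46.0 on thioglycollate WT arrays. The thioglycollate genotypes did not overlap in net intensity for miR-433-5p or miR-494. In all, 8 of 41 members had net intensities higher in every thioglycollate IL4 receptor KO array than in every thioglycollate WT array, a pattern shown by 23.3% of all mouse-named probes. After normalization between arrays both members overlapped, with log2 differences of 0.30 for miR-433-5p and 0.31 for miR-494 (limma adjusted p = 1 for each).

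**Figure D3:**
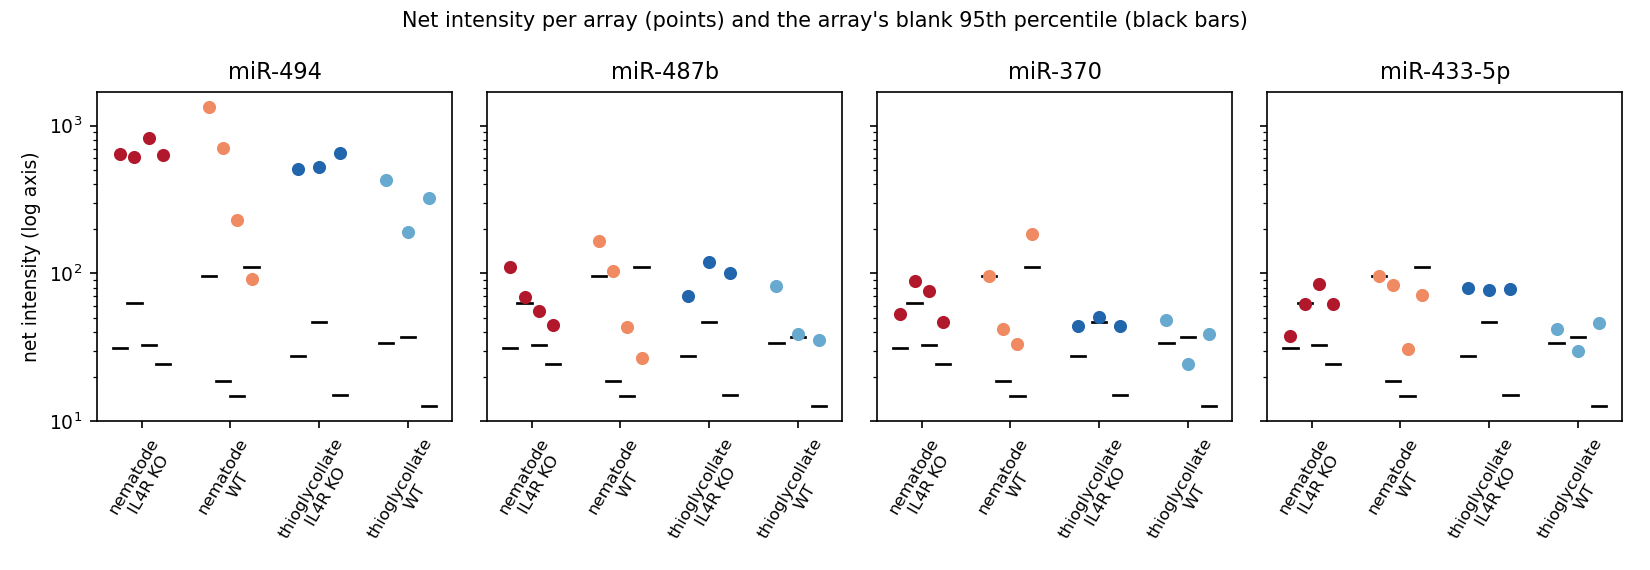
Net intensity (log axis) of the 4 members above blank spots on at least 7 arrays, 1 point per array, by group; the black bar under or over each point is that array's 95th percentile of blank spots. MiR-494 runs from 91.5 to 1338 on the nematode WT arrays, and its other groups lie within that range.

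Each of the other 5 hairpins with a probe for both arms had no arm above blank spots on more than 6 arrays. MiR-485-3p was above blank spots on 6 arrays and miR-485-5p on 2. MiR-376a* was above on 4 arrays and miR-376a on 0. For miR-380 and miR-434 the 3p arm was above on 3 arrays and the 5p arm on 2, and both arms of miR-376b were above on 1. Signals of different probes depend on each probe's own hybridization, so these counts do not rank the arms.

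The remaining 16 members above blank spots on at least 3 arrays were so on 3 to 6 arrays. MiR-127, miR-299, miR-341, miR-381 and miR-485-3p were above on 6 arrays, and miR-496, miR-539 and miR-543 on 5. MiR-337 and miR-376a* were above on 4, and miR-134, miR-369-3p, miR-380-3p, miR-382, miR-410 and miR-434-3p on 3. Their net intensities ran from 3.24 to 279 over all arrays, with medians per probe of 12.4 to 34.3. MiR-127, one of the Rtl1-directed miRNAs, ran from 11.6 to 63.6 with a median of 34.3. MiR-134, the neuronal miRNA that acts on Limk1, ran from 9.2 to 38.9 with a median of 18.3.

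A few of these values came from 1 bright spot. MiR-369-3p reached 279 on nematode IL4 receptor KO 2 from spots of 47.0, 128 and 661. MiR-485-3p reached 146 on nematode IL4 receptor KO 3 from spots of 26.6, 26.7 and 383. Over all members, 9 of 574 values had a spot at least 5 times the middle one. Of the 145 values above blank spots, 89 had every spot above the percentile and 23 had only 1 spot above. MiR-299 showed the opposite case on thioglycollate WT 2, where its net intensity of 96.4 came from spots of 40.7, 104 and 144, all above that array's percentile of 36.9, while the other 13 arrays ran from 17.2 to 49.3.

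Further lists put these counts beside those of other cell types. Of 10 stromal probes, 7 were above blank spots on at least 3 arrays and 2 on at least 7 (miR-10a and miR-199b). Of 8 neural probes, 2 were above on at least 3 arrays and 0 on at least 7, with miR-124a and 1 of the probes of miR-137 above on no array. Of 14 probes for miRNAs of other imprinted loci, 9 were above on at least 3 arrays and 5 on at least 7. Lists for tissues other than macrophages also passed on at least 3 arrays, with 5 of 6 epithelial probes, 4 of 5 lymphocyte probes, 3 of 4 muscle probes and 1 of 2 endothelial probes. On at least 7 arrays it was 0 of the epithelial, muscle and endothelial probes and 2 of the lymphocyte probes. No test was made of these shares.

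The first comparison asked whether the nematode elicitation changed the cluster relative to thioglycollate. In WT macrophages 0 of 41 members passed an adjusted p of 0.05, where 0.875% of the 343 mouse-named probes did (limma, Benjamini-Hochberg adjustment over those probes). At an unadjusted p under 0.05 it was 2 members (10.8% of all probes), and 1 member did not overlap between groups (7.87% of all probes). The members' log2 differences ran from -0.52 to 0.34 with a median of 0.01, against a median of -0.02 over all mouse-named probes. MiR-543 had the lowest p, with net intensities of 59.8, 18.9, 9.13 and 17.0 on nematode WT arrays, against 44.2, 38.5 and 18.1 on thioglycollate WT arrays. It was above blank spots on 1 nematode WT array and on all 3 thioglycollate WT arrays. On thioglycollate WT 2 it passed through 1 spot (spots of 9.34, 30.8 and 75.3, percentile 36.9), and on nematode WT 2 its middle spot of 17.8 was under the percentile of 18.6. By the middle spot miR-543 was above on 2 of 14 arrays, in place of 5. The groups overlapped, and the log2 difference was -0.31 ± 0.12 (SE; limma adjusted p = 0.421). MiR-380-3p was next, with 6.62 to 12.2 on nematode WT arrays, where it was above blank spots on none, against 16.6 to 17.9 on thioglycollate WT arrays, where it was above on 1 (log2 difference -0.20, limma adjusted p = 0.443). Since it stayed below blank spots in nematode WT, only a bound applies, and the blank level leaves no fold above 1 to give.

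In IL4 receptor KO macrophages 0 of 41 members passed for nematode against thioglycollate, where 1.46% of all mouse-named probes did. At an unadjusted p under 0.05 it was 2 members (9.62% of all probes), and 1 member did not overlap (15.7% of all probes). That member was miR-410, the last member along the chromosome. Its net intensity was 41.6, 23.2, 18.3 and 53.7 on nematode IL4 receptor KO arrays, 2 of them above blank spots, against 11.8, 11.3 and 12.4 on thioglycollate IL4 receptor KO arrays, none above (limma adjusted p = 0.363). Both arrays above blank spots passed through 1 spot each, with spots of 14.4, 21.8 and 88.5 on nematode IL4 receptor KO 1 (percentile 31.3) and of 13.2, 14.3 and 134 on nematode IL4 receptor KO 4 (percentile 24.3). By the middle spot miR-410 was above on neither, so no fold is given. MiR-329 had a log2 difference of -0.21 (limma adjusted p = 0.483) and was below blank spots on all 4 nematode IL4 receptor KO arrays. Averaged over both genotypes, 0 of 41 members passed (2.92% of all probes), 1 had an unadjusted p under 0.05 (13.4% of all probes), and the lowest p was again that of miR-410 (log2 difference 0.24, limma adjusted p = 0.314), with miR-543 next (log2 difference -0.19, limma adjusted p = 0.355). The median member difference was 0.01 and the median over all mouse-named probes -0.03.

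None of the 4 members above blank spots on most arrays was called between elicitations. In WT macrophages the log2 difference of nematode minus thioglycollate was -0.16 for miR-494 (95% interval -1.25 to 0.94) and 0.01 for miR-487b (-0.49 to 0.52). It was 0.34 for miR-370 (-0.12 to 0.79) and 0.07 for miR-433-5p (-0.28 to 0.41). The signs for miR-494, miR-487b and miR-433-5p turned under other settings or without single arrays. In IL4 receptor KO macrophages the differences were 0.28 for miR-494 (-0.82 to 1.38), -0.35 for miR-487b (-0.86 to 0.15), 0.15 for miR-370 (-0.31 to 0.60) and -0.27 for miR-433-5p (-0.61 to 0.08). All 8 intervals include 0, and those of miR-494 were the widest.

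**Figure D4:**
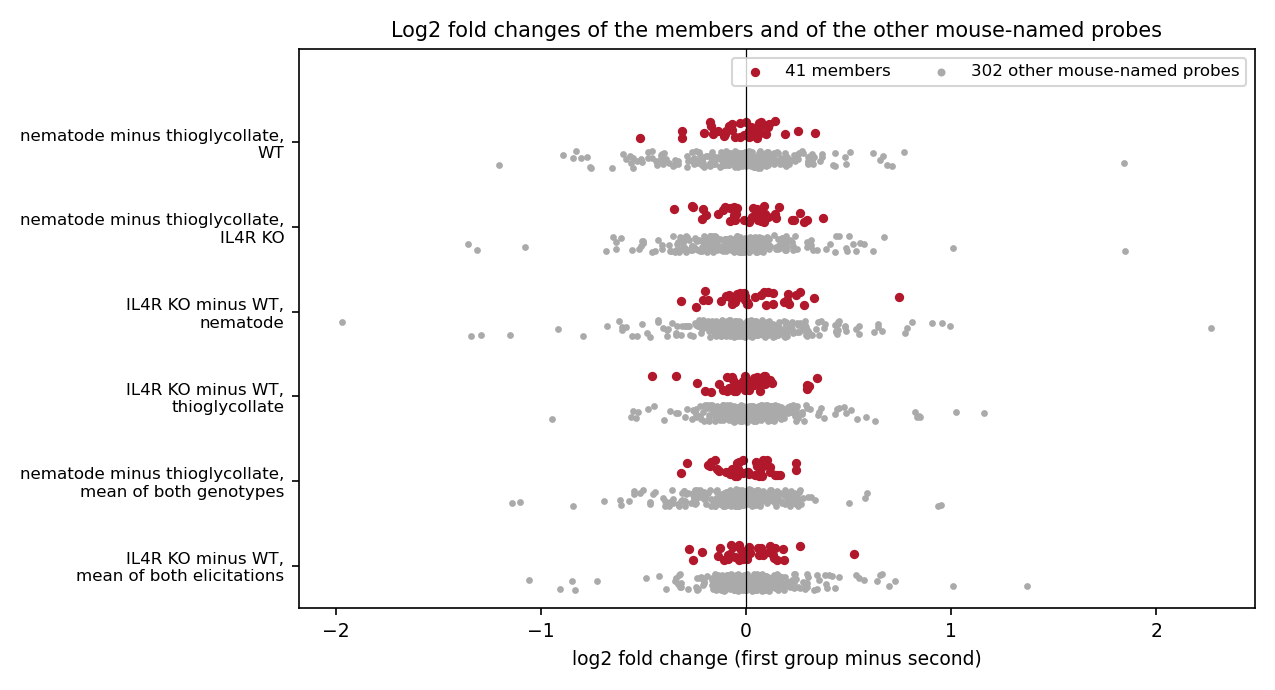
Log2 fold changes of the 41 member probes (red) and the 302 other mouse-named probes (grey) in 6 comparisons, each first group minus second; vertical scatter within a row has no meaning. The members' differences lie between -0.52 and 0.74 over the 6 comparisons.

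The second comparison asked whether loss of the IL4 receptor changed the cluster. In nematode-elicited macrophages 0 of 41 members passed, where 1.75% of all mouse-named probes did. At an unadjusted p under 0.05 it was 3 members (12.5% of all probes), and 2 did not overlap (9.04% of all probes), miR-300 and miR-376b*. MiR-300 had net intensities of 18.7, 13.99, 30.2 and 50.01 on nematode IL4 receptor KO arrays, of which the last alone was above blank spots, against 12.6, 9.36, 9.74 and 5.83 on nematode WT arrays, none above. Net intensities were thus higher in every IL4 receptor KO array than in every WT array for 2 of 41 members, both shown here, and for 3.21% of all mouse-named probes. The log2 difference of miR-300 was 0.33 (limma adjusted p = 0.202). MiR-376b*, the star arm of miR-376b, was below blank spots on all 8 arrays, at 12.7 to 24.7 in nematode IL4 receptor KO and 5.33 to 8.83 in nematode WT (limma adjusted p = 0.296). No fold is given for either. For miR-300 the blank level leaves none above 1, and miR-376b* was below blank spots in both groups. Among the members above blank spots on most arrays, the IL4 receptor KO minus WT difference in nematode macrophages was -0.07 for miR-487b, -0.18 for miR-370 and -0.03 for miR-433-5p, each with a sign that turned under another setting or without 1 array.

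In thioglycollate-elicited macrophages 0 of 41 members passed for IL4 receptor KO against WT, where 0.292% of all mouse-named probes did. At an unadjusted p under 0.05 it was 2 members (4.08% of all probes), miR-329 and miR-543, and 4 members did not overlap (11.1% of all probes). MiR-543 had net intensities of 30.8, 19.01 and 14.9 in IL4 receptor KO, against 44.2, 38.5 and 18.1 in WT, with overlapping groups and a log2 difference of -0.34 (limma adjusted p = 0.747). Within slide 12, which held 1 array of each genotype, the difference of miR-543 was 0.06. The remaining members without overlap, miR-377, miR-431 and miR-434-3p, had log2 differences between -0.09 and 0.12 and a limma adjusted p of 1 each.

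Averaged over both elicitations, 1 of 41 members passed the test for IL4 receptor KO against WT, miR-329. Over all mouse-named probes 2.04% passed as higher and 3.5% in either direction, so 1 call among 41 members lies near these shares. At an unadjusted p under 0.05 it was 3 members (9.62% of all probes). These included miR-543 (log2 difference -0.21, limma adjusted p = 0.356) and miR-376b* (log2 difference 0.15, limma adjusted p = 0.424), which did not pass. MiR-329 was above blank spots on 2 of the 7 IL4 receptor KO arrays and 0 of the 7 WT arrays, so WT has only a bound, and the blank level leaves no fold above 1 to give. Of those 2 arrays, thioglycollate IL4 receptor KO 1 passed through 1 spot (spots of 24.8, 25.0 and 63.7, percentile 27.4). The net intensity of miR-329 was 28.1, 11.6, 17.9 and 18.0 on nematode IL4 receptor KO arrays, against 14.4, 12.8, 7.22 and 4.43 on nematode WT arrays. It was 37.8, 34.9 and 22.3 on thioglycollate IL4 receptor KO arrays, against 13.4, 15.5 and 6.91 on thioglycollate WT arrays. The thioglycollate groups did not overlap, and the nematode groups did. In neurons of rodents miR-329 is known for its part in activity-dependent growth of dendrites.

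On the normalized log2 scale miR-329 averaged 6.21 ± 0.16 over the 7 IL4 receptor KO arrays and 5.96 ± 0.09 over the 7 WT arrays (SD). The log2 difference, the mean of the differences in both elicitations, was 0.26 ± 0.07 (SE, 95% interval 0.12 to 0.41, limma adjusted p = 0.0405). By elicitation it was 0.19 in nematode (limma adjusted p = 0.387) and 0.34 in thioglycollate macrophages (limma adjusted p = 0.238), and the interaction did not pass (log2 difference of differences -0.16, limma adjusted p = 0.904). Most of the values compared lie below the 95th percentile of blank spots. The call was lost in 18 of 26 other settings that gave a value, where the log2 difference was 0.22 to 0.29 (limma adjusted p of 0.0557 to 0.136), and also where only probes above blank spots were tested, which leaves miR-329 out. It was kept in 8 settings (limma adjusted p of 0.0111 to 0.0474). The size depended on the background correction, at 0.46 with no correction, 0.46 with offset 20 and 1.10 with plain subtraction. Leaving out 1 array ended the call for 11 of the 14 arrays, while the log2 difference stayed between 0.24 and 0.29. The limma adjusted p was 0.136 without thioglycollate IL4 receptor KO 1, 0.113 without thioglycollate IL4 receptor KO 2 and 0.0557 without thioglycollate IL4 receptor KO 3. It was 0.105 without thioglycollate WT 1 and 0.115 without thioglycollate WT 3 (limma adjusted p). Without nematode IL4 receptor KO 1, 3 or 4 the limma adjusted p was 0.0834, 0.071 and 0.0986, and without nematode WT 1, 3 or 4 it was 0.0721, 0.0767 and 0.0568. Within slide 12 the difference was 0.53.

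Of the lists of other cell types, the lymphocyte list did not overlap between genotypes on nematode arrays, a description with no test. The 5 lymphocyte probes had a summed net intensity of 180.2 to 266 on nematode IL4 receptor KO arrays, against 81.3 to 132 on nematode WT arrays. By probe, 1 of the 5 was called there, miR-150, a miRNA of mature lymphocytes, with a log2 difference of 0.96 (limma adjusted p = 0.000573), where 1.75% of all mouse-named probes were. In thioglycollate macrophages 0 of the 5 were called. On thioglycollate arrays it was 134 to 175 in IL4 receptor KO, against 105 to 201 in WT. Of these probes 4 were above blank spots on at least 3 arrays, and miR-181a* was above on none. The median log2 difference of the 5 probes between genotypes was 0.10 in nematode and -0.08 in thioglycollate macrophages. In the averaged genotype contrast miR-150 was also called (log2 difference 0.53, limma adjusted p = 0.00747), where 3.5% of all probes were. The median of the 5 probes in that contrast was -0.02, so the list did not rise with miR-150 there. Of the 11 myeloid probes, 1 was called for genotype, miR-223, which was lower in IL4 receptor KO. Its log2 difference was -1.34 in nematode macrophages (limma adjusted p = 0.000697) and -0.84 averaged over both elicitations (limma adjusted p = 0.00516). The 8 neural probes summed to 112 to 155 on nematode IL4 receptor KO arrays, against 79.3 to 399 on nematode WT arrays, and the 10 stromal probes to 209 to 271 on nematode IL4 receptor KO arrays, against 203 to 612 on nematode WT arrays. Both ranges overlap, and 0 of the neural and stromal probes were called for genotype. The part of these cells in the difference of miR-329 was not tested.

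**Figure D5:**
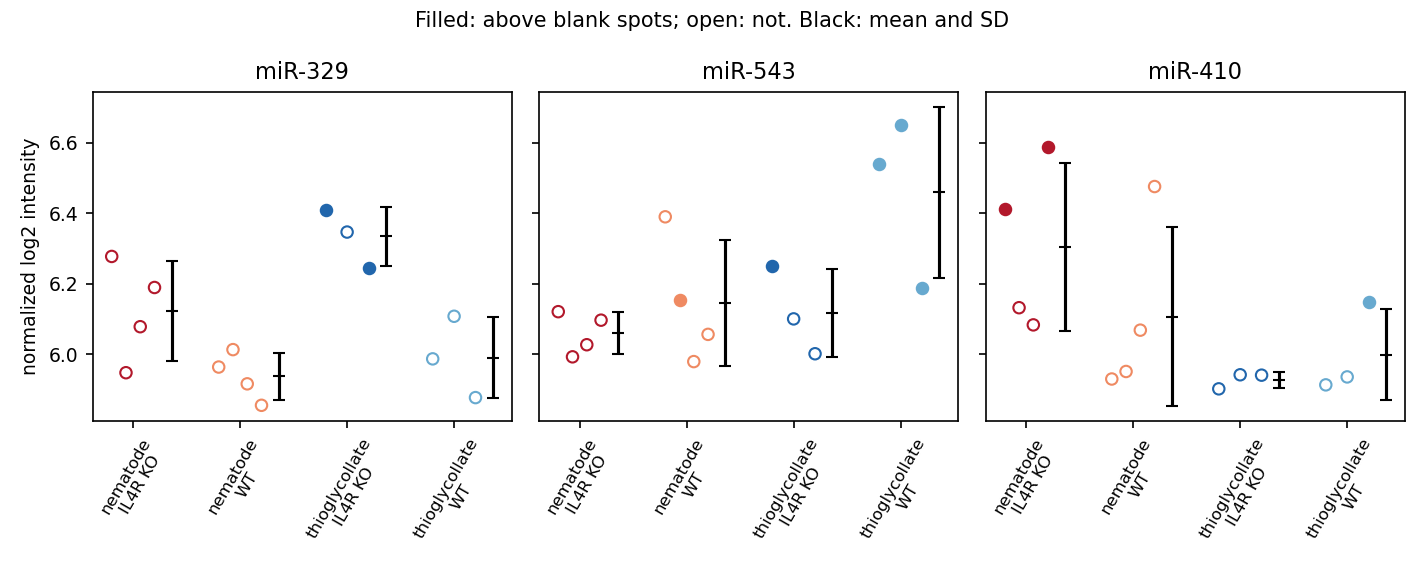
Normalized log2 intensity of miR-329, miR-543 and miR-410 on each array by group; filled points are above the array's blank percentile, open points are not, and the black marks give the group mean and SD. MiR-329 is higher on the 3 thioglycollate IL4R KO arrays than on the 3 thioglycollate WT arrays, and 12 of its 14 points are open.

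The third comparison asked whether the effect of the receptor differed between elicitations. For this interaction 0 of 41 members passed (0.583% of all mouse-named probes), and 0 had an unadjusted p under 0.05 (6.71% of all probes). MiR-434-3p had the lowest p, with a log2 difference of differences of -0.36 (95% interval -0.77 to 0.05, limma adjusted p = 0.904), and miR-300 was next at 0.29 (limma adjusted p = 0.904). For the 4 members above blank spots on most arrays the intervals were wide: -1.11 to 1.99 for miR-494, -1.09 to 0.35 for miR-487b, -0.83 to 0.45 for miR-370 and -0.82 to 0.15 for miR-433-5p. Over all 7 contrasts the members' median absolute log2 difference was 0.07 to 0.12, against 0.09 to 0.14 over all mouse-named probes. The offset added in the background correction compresses differences of dim probes, so these sizes understate what dim members may have done.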

How the data were processed

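Each deposited slide file lists foreground intensity and local background per spot on a linear scale, and per the file headers the authors neither subtracted nor scaled them. Local background, under the unit other, is per the file headers the brightness around a spot. The authors' deposited value table equalled foreground minus background intensity within 0.001, so it is linear and uncentred, with column medians of 10.5 to 19.1. In R 4.3.3, limma 3.58.1 corrected background by normexp (offset 50). Log2 values were averaged over the 3 spots and quantile normalization ran over 1309 miRNA probes. No member spot was saturated. A fit of 1 mean per group over 14 arrays (limma lmFit, eBayes, two-sided) covered 343 mouse-named probes, with Benjamini-Hochberg adjustment within each of 7 contrasts and a threshold of 0.05, and its code was tested on simulated data. Detection used 702 blank and 24 negative control spots per array. Where a member was below blank spots on every array of 1 side, a fold is a bound: the brighter group's mean against the dimmer group's mean of, per array, the higher of the lowest signal above blank spots and the probe's own. The text names every member above blank spots on at least 3 arrays (all values for those on at least 7), the 2 members of lowest p in each contrast and every called member; members without overlap and single bright spots were named after their values were seen. The members, lists and tests were chosen with earlier results of these data known. The number of arrays limits the precision. Alternatives covered background correction, normalization, spot summary, filter, moderation, slide, position, replicate block and leaving out arrays.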

Additional observations from a re-analysis of the deposited data

Results flagged for a closer look

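For the members named in the report, 46 groups of 4 arrays were examined, and in 8 the highest or lowest array lay far from the others by Dixon's criterion, which chance meets in about 5% of groups. On the normalized log2 scale miR-369-3p was 7.76 on nematode IL4 receptor KO 2 and 6.28 on nematode WT 4, and miR-370 was 7.68 on nematode WT 4. MiR-485-3p was 6.99 on nematode IL4 receptor KO 3, miR-487b was 7.21 on nematode IL4 receptor KO 1, and miR-496 was 6.04 on nematode IL4 receptor KO 4. MiR-337 was 6.37 on nematode WT 3, and miR-381 was 5.82 on nematode WT 4, the only low value among the 8. MiR-496 on nematode IL4 receptor KO 4, and both miR-369-3p and miR-381 on nematode WT 4, were not above blank spots.

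A further 10 probes on the arrays carry a member number but are named for other species only. Of these, 4 were above blank spots on 3 arrays each, which are hsa-miR-369-5p, hsa-miR-329, hsa-miR-299-3p and hsa-miR-376b. Their highest net intensities were 29.6, 65.6, 37.9 and 322 in that order, and 0 of the 10 were above on at least 7 arrays.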

How the results depend on the processing

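The 20 members above blank spots on at least 3 arrays (230 of 343 mouse-named probes) became 3 with the 99th percentile (95 of 343), 9 where every spot had to pass (159), 4 where at least 7 arrays were asked for (119), and 33 with the blank median plus 3 median absolute deviations, an alternative chosen after seeing the data (298). The 4 members above on at least 7 arrays became 1 with the 99th percentile (48 of 343), 4 where every spot had to pass (97) and 16 with the median absolute deviations (216). Leaving out each array in turn gave 14 to 20. In the 6 contrasts other than the averaged genotype contrast, 0 members were called in every setting. In the averaged genotype contrast the 1 call became 0 with no normalization, median scaling, cyclic loess, position as a factor, the replicate block (limma adjusted p = 0.082), spot medians, only probes above blank spots, and without nematode WT 1 and 4 (chosen after seeing the data). Leaving out each array gave 0 to 1. Of 19 same-numbered pairs of arrays, 5 correlated over 0.1 (-0.238 to 0.315). Differently numbered pairs were not compared, so these values cannot decide whether replicate numbers pair the samples. The replicate block changed no other count. Slide as a random block had a correlation of -0.02. The cause of each change was not tested.

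Differences of the members that were not called turned sign in 34 cases. For nematode minus thioglycollate in WT, miR-487b gave -0.0661 with no background correction, -0.0622 with plain subtraction, -0.0184 with offset 20, -0.0248 with position as a factor, and -0.100 to 0.254 leaving out arrays. MiR-494 gave 0.35 with no normalization, 0.29 with median scaling, 0.33 with cyclic loess, 0.11 with the replicate block, 0.0575 without nematode WT 1 and 4, and -0.59 to 0.42 leaving out arrays. MiR-433-5p gave -0.0412 to 0.206 leaving out arrays. For IL4 receptor KO minus WT in nematode macrophages, miR-370 gave 0.0648 with the median of spots, 0.13 with no background correction, 0.0732 without nematode WT 1 and 4, and -0.281 to 0.0627 leaving out arrays. MiR-433-5p gave 0.0484 with no background correction and -0.116 to 0.0737 leaving out arrays, and miR-487b gave -0.313 to 0.0423 leaving out arrays. For IL4 receptor KO minus WT in thioglycollate macrophages, miR-370 gave -0.0291 with no background correction, -0.0153 with plain subtraction, -0.13 with cyclic loess, -0.20 within slide 12 and -0.103 to 0.0911 leaving out arrays, and miR-543 gave 0.0629 within slide 12.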
